A study of Homo sapiens with 6 samples.

Results

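The 10 genes of bone morphogenetic protein (BMP) signaling and the inhibitor of DNA binding (ID) family described here were chosen by name and not by a cut on measured values, with earlier results of these data known: the ligands BMP2, BMP4 and BMP7, the receptors BMPR1A and BMPR2, the inhibitory SMAD gene SMAD6, and ID1, ID2, ID3 and ID4. Of these, 9 had a row among the 32029 genes listed for every sample, and ID4 was not analysed here. Sequencing covered 6 cultures of SW480, an adherent human colorectal adenocarcinoma cell line whose genotype is given as WT, 48 h after transfection with an siRNA. In all, 3 cultures received a control siRNA (siNC) and 3 received an siRNA against ZEB1 (siZEB1), the zinc finger repressor of epithelial genes, and both groups share the cell line and the transfection. The number of siRNAs in each treatment and their sequences are not given in the sources used here, so an effect of ZEB1 loss and an effect of the siRNA on other transcripts cannot be told apart. In RNA of whole cultures, fewer cells that express a gene and less RNA per cell cannot be told apart either.

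BMPs are secreted dimers of the TGF-beta superfamily that bring type I and type II serine/threonine kinase receptors together at the cell surface. The type II receptor activates the type I receptor, which phosphorylates SMAD1, SMAD5 and SMAD9, and these enter the nucleus with the common partner SMAD4. Among the genes they switch on are ID1, ID2 and ID3, small helix-loop-helix proteins that lack a DNA-binding region and hold E proteins such as TCF3 and TCF12 away from DNA, and SMAD6 and SMAD7, which turn the signal down again. In the intestine, BMP signaling is strongest toward the differentiated cells of the villus or surface and is held back around the stem cells by secreted antagonists.

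Read counts per culture summed to between 19040636 and 22357633. A gene was called when edgeR's quasi-likelihood test, two-sided, gave a Benjamini-Hochberg adjusted p below 0.05 over the 14996 genes with enough reads to pass edgeR's filter, and all adjusted p-values here come from that fit. Levels are counts scaled to a common library size (CPM) after TMM scaling, and changes are log2 fold changes of siZEB1 over siNC with their standard error (SE). ZEB1 had 1247, 1276 and 908 reads in the siNC cultures and 136, 132 and 162 in the siZEB1 cultures, a change of -2.85 on the log2 scale (SE 0.108, adjusted p = 4.85e-12). Of 7 colorectal epithelial markers, 6 had a row: KRT8 and KRT18 were abundant, with log2 fold changes of 0.03 and 0.04 that were not called, KRT19, EPCAM and VIL1 were higher in siZEB1, and CDX2 was lower. Markers of other cell types were low, with summed levels of 0.658 to 1.03 CPM in siNC and 1.09 to 1.17 CPM in siZEB1 for 4 immune genes, 2.02 to 2.72 and 1.54 to 2.60 CPM for 2 endothelial genes, and 13.3 to 14.9 and 13.3 to 15.1 CPM for 5 fibroblast genes. COL1A1 made most of the fibroblast sum, with 204, 227 and 207 reads in siNC and 182, 173 and 143 in siZEB1. PDGFRB was called higher, with 78, 96 and 77 reads in siNC and 101, 98 and 106 in siZEB1 (adjusted p = 0.0281). When the fit was repeated, the PDGFRB call was lost without siNC replicate 1 (adjusted p = 0.0979), siZEB1 replicate 1 (0.0714) or siZEB1 replicate 3 (0.075). It was also lost without the filter (0.0616), with replicate number as a block (0.0567), without replicate 3 of both groups (0.0775) and with DESeq2. COL1A2, LUM, PDGFRA, CD3E and CD68 had at most 5 reads in any culture. For CD68, 81.7% of the exonic bases overlap another gene on the same strand, and how reads there were counted is not given.

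All 9 genes with a row passed the filter, and 7 of them were called: BMP2, BMP7, SMAD6, ID1 and ID2 were lower and BMP4 and BMPR1A were higher in siZEB1. Over all genes tested, 40.2% were called, 19.0% as higher and 21.2% as lower. The median log2 fold change of the 9 genes was -0.49, against -0.0055 for all genes tested. The study's results use a fold above 1.5 with an unadjusted p below 0.05, while its methods name a stricter p. By the cut of its results, BMP2, BMP7 and SMAD6 were lower and none of the 9 was higher. In these directions, 9.35% and 7.21% of all genes tested passed. The CPM values of the groups did not overlap for 7 of the 9 genes, which was the case for 49.5% of all genes tested.

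**Figure D1:**
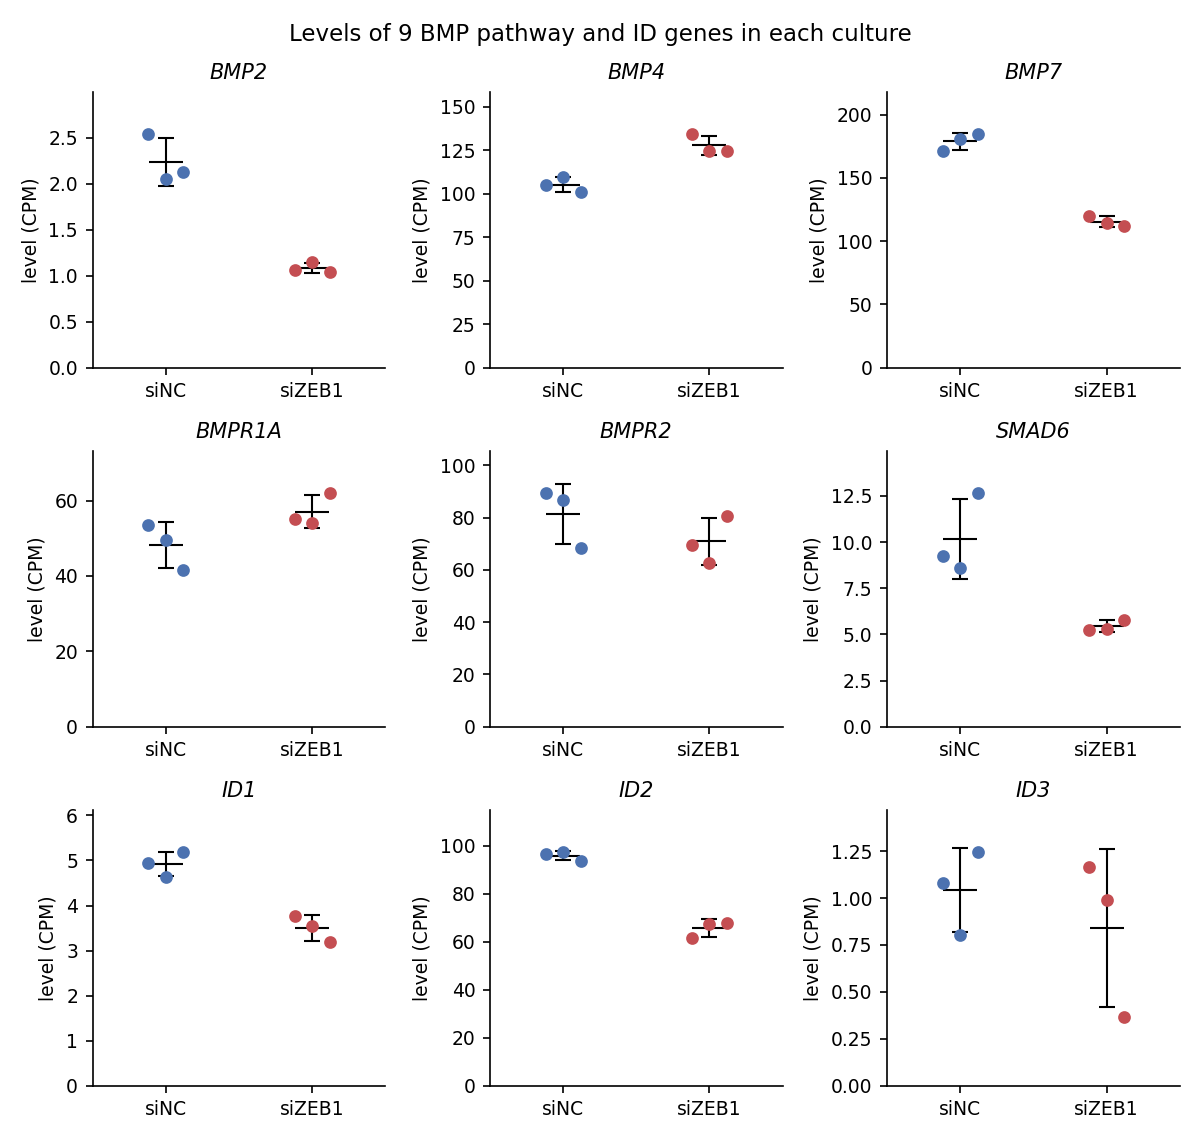
Levels of the 9 genes in each culture, with 1 panel per gene, CPM on a linear axis from 0, siNC in blue and siZEB1 in red; horizontal bars mark the mean and whiskers the SD over 3 cultures. The groups are apart for BMP2, BMP4, BMP7, SMAD6, ID1 and ID2, separated by a narrow margin for BMPR1A, and overlapping for BMPR2 and ID3.

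**Figure D2:**
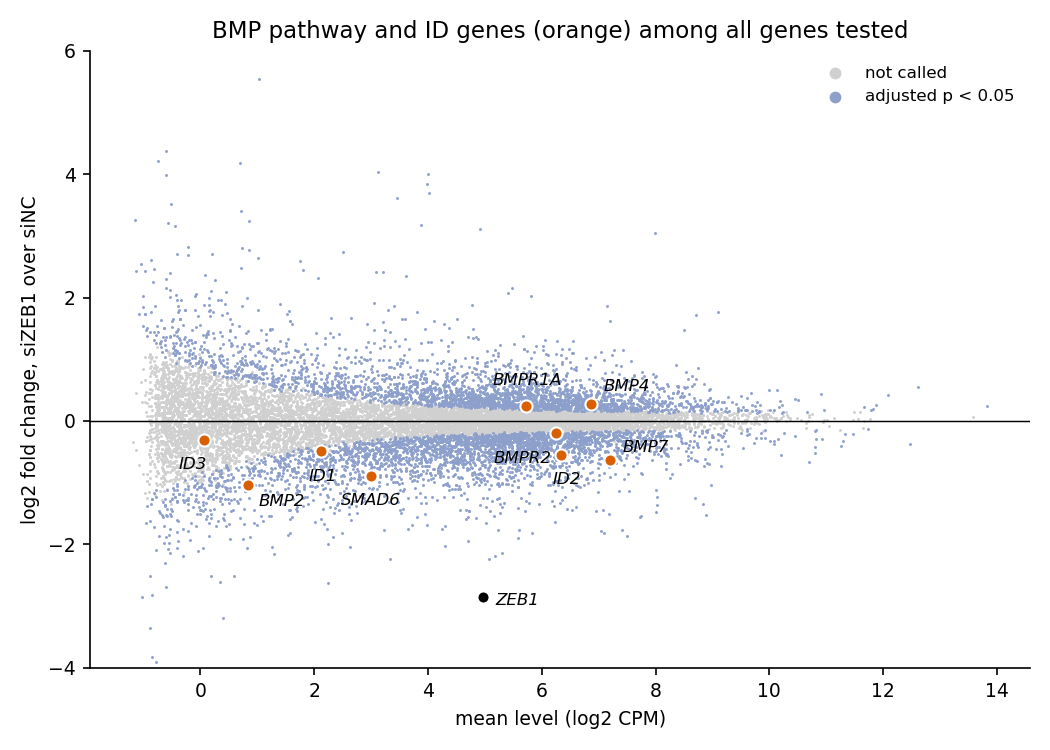
Log2 fold change of siZEB1 over siNC against the mean level in log2 CPM for all genes tested, with genes called at an adjusted p below 0.05 in blue, the others in grey, the 9 BMP and ID genes in orange and ZEB1 in black. The 9 genes lie between log2 fold changes of -1.04 for BMP2 and 0.28 for BMP4, above ZEB1 at -2.85.

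To show the DNA around the start sites of these genes, windows from 250 bases before to 50 bases after each RefSeq transcription start (build GRCh38.p14) were searched on both strands for 3 motifs. CAGGTG, an E-box of the kind that ZEB1 binds, was in 0 of the 10 windows given for 8 of the 10 genes, all but BMP2 and BMP7, and in 20.6% of all 35116 RefSeq windows of this length. GGCGCC, an element known from BMP-responsive ID promoters, was in 2 of the 10 windows and in 19.2% of all. GTCTAGAC, the palindrome bound by SMAD complexes, was in 1 of the 10 windows and in 0.202% of all; it shares no overlapping match with the others in these windows. A match is a run of letters and not a measured site, and where a motif was not found, only its letters are missing from this window. Of these, the window of SMAD6 (chr15:66701986-66702285, + strand) is shown for its GTCTAGAC, at position -12 from the start, that of the last listed start of BMP4 (chr14:53955001-53955300, - strand) for its 2 copies of GGCGCC, at positions -232 and 2, and those of ID1 (chr20:31605039-31605338, + strand) and ID2 (chr2:8681806-8682105, + strand) because both ID genes were called lower and hold none of the 3 motifs here. Each is written 5′ to 3′ on the strand of the gene, from RefSeq, with the motif in capitals.
SMAD6: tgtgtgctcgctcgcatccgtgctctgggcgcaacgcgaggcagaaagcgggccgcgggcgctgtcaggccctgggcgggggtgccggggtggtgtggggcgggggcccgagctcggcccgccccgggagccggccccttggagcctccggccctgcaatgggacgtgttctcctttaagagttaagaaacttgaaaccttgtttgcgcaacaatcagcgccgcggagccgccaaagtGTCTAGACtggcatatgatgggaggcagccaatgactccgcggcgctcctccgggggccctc
BMP4: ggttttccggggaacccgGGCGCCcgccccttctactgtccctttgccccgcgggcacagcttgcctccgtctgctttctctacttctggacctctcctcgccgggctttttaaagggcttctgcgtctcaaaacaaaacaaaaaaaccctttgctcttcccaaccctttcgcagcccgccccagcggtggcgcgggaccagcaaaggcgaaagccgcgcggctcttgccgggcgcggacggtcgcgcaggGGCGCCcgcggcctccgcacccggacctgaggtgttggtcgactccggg
ID1: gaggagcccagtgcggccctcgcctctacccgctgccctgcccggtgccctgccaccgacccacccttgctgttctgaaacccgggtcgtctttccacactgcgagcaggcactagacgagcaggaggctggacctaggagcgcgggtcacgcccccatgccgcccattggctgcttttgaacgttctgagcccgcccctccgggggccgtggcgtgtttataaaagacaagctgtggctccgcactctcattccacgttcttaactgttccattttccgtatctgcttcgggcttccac
ID2: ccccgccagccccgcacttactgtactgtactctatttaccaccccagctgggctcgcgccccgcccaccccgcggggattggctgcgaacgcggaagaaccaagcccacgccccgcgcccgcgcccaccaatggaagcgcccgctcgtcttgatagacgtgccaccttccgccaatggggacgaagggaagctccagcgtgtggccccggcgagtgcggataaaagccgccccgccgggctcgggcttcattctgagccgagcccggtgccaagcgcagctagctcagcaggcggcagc

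Among the 3 ligands chosen, BMP7 and BMP2 fell and BMP4 rose. BMP7 (chromosome 20 from 57168748 to 57266629, - strand, GENCODE 29 on GRCh38), a ligand known for roles in kidney, bone and epithelial differentiation, was at 172, 180.3 and 185 CPM in the siNC cultures and at 119.9, 115 and 112 CPM in the siZEB1 cultures. Every siZEB1 culture was below every siNC culture, by more than the spread within either group. The log2 fold change was -0.63 (SE 0.0608, 95% interval -0.76 to -0.50, adjusted p = 3.58e-07), so that the level fell by 35.5%, and it stayed between -0.66 and -0.61 with any one culture left out.

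BMP4 (chromosome 14 from 53949736 to 53958761, - strand), the ligand made mainly by stroma in the normal intestine, went the other way. It was at 105, 109.5 and 101 CPM in siNC and at 134, 125 and 125 CPM in siZEB1. The groups were apart, with the lowest siZEB1 culture above the highest siNC culture. The log2 fold change was 0.28 (SE 0.0637, 95% interval 0.15 to 0.42, adjusted p = 0.00183), a rise of 21.7%, and BMP4 was the only ligand tested that was called higher.

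BMP2 (chromosome 20 from 6767664 to 6780280, + strand), the closest relative of BMP4, was scarce. It had 54, 46 and 41 reads in siNC and 20, 22 and 20 reads in siZEB1, or 2.24 ± 0.262 and 1.08 ± 0.0536 CPM (SD, n = 3). The fewest reads in siNC were above the most in siZEB1, and the level was 2.06-fold lower in siZEB1 (log2 fold change -1.04, SE 0.239, 95% interval -1.55 to -0.54, adjusted p = 0.00207). BMP2 thus had the largest log2 fold change of the 9 genes and the fewest reads after ID3.

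Per length, BMP4 and BMP7 stood close together in siNC and apart in siZEB1. In CPM per kb of exon, BMP4 was at 34.1 ± 1.43 and BMP7 at 33.0 ± 1.23 in siNC, which differ by less than their spread, while in siZEB1 BMP4 was at 41.5 ± 1.79 and BMP7 at 21.3 ± 0.767 (SD, n = 3). The ratio of BMP7 to BMP4 reads per kb was 0.928, 0.936 and 1.04 in siNC and 0.508, 0.523 and 0.509 in siZEB1. BMP6, a ligand close to BMP7 and known for iron regulation, had 839, 901 and 680 reads in siNC and 394, 399 and 418 in siZEB1, and fell by 0.86 on the log2 scale (SE 0.0812, adjusted p = 3.01e-07). Of the summed level per kb of BMP2, BMP4, BMP6 and BMP7, BMP4 made 41.8% ± 0.865 in siNC and 58.7% ± 0.528 in siZEB1, and the sum itself was 81.5 ± 2.05 and 70.7 ± 2.41 CPM per kb (SD, n = 3). These shares describe RNA and were not tested, and they rest on exons pooled over all isoforms, which understates the level of genes with long or rarely used exons.

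**Figure D3:**
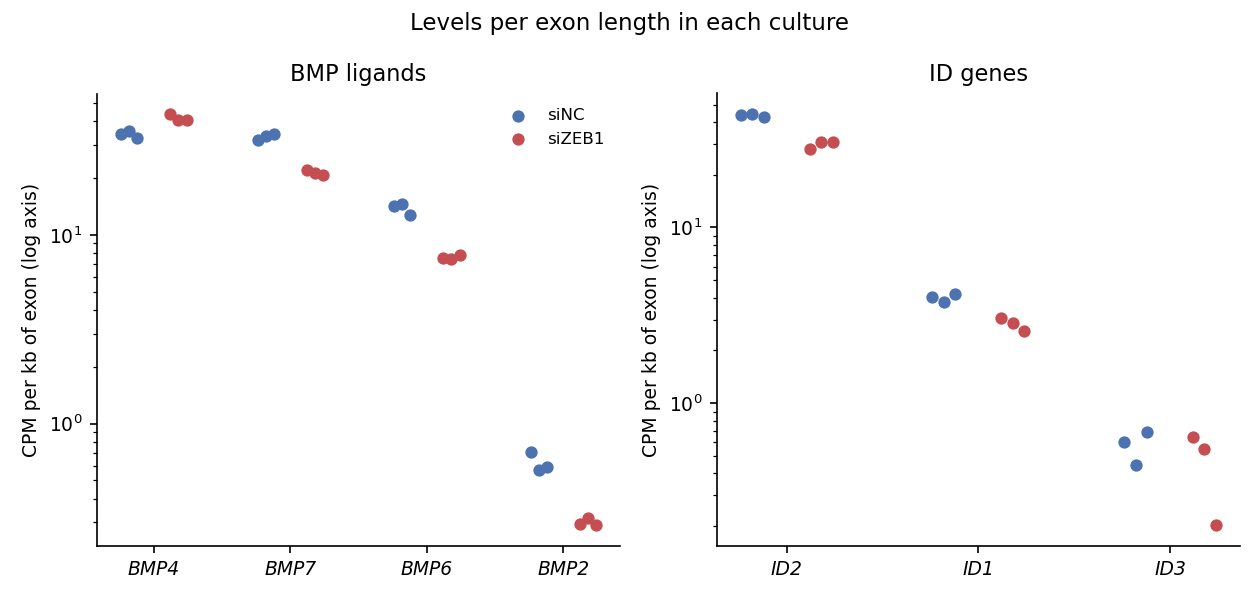
Levels of the ligands BMP4, BMP7, BMP6 and BMP2 (left) and of ID2, ID1 and ID3 (right) in each culture, in CPM per kb of exon on a log axis, with siNC in blue and siZEB1 in red. BMP4 and BMP7 lie close together in siNC and apart in siZEB1, and ID2 lies above ID1 and ID3 in both groups.

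The list of BMP ligands compiled for this description holds 14 genes, of which 10 had a row and 6 passed the filter. Of these, 1 was called higher (BMP4) and 3 lower (BMP2, BMP6 and BMP7), against 19.0% and 21.2% of all genes tested. BMP8A, with 25, 19 and 21 reads in siNC and 6, 25 and 22 in siZEB1, and BMP8B, with 43, 47 and 37 and with 21, 24 and 41, were not called, although BMP8B was called lower without siZEB1 replicate 3 (-0.77, adjusted p = 0.0355). The 4 ligand genes below the filter, BMP5, BMP15, GDF5 and GDF7, had at most 10 reads in any culture.

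Secreted antagonists and modulators of BMPs were lower in siZEB1 where they were called. Of 17 genes listed, 13 had a row and 6 passed the filter, of which 5 were called lower and 0 higher, against 21.2% and 19.0% of all genes tested. With at least 10 counts required in every sample, which leaves out NOG and CHRD, 3 were lower. NBL1, the gene that was not called, had 214, 236 and 261 reads in siNC and 275, 242 and 241 in siZEB1, a difference of 0.22 on the log2 scale (SE 0.12, 95% interval -0.03 to 0.48), and it was called higher without siNC replicate 3 (0.36, adjusted p = 0.013). CRIM1, a membrane protein that binds BMPs, had the highest level per kb of exon of this list, at 25.9 ± 3.36 CPM per kb in siNC and 18.6 ± 2.05 in siZEB1 (SD, n = 3), a change of -0.48 on the log2 scale (SE 0.0909, adjusted p = 0.000444). TWSG1, which binds BMPs together with chordin, and FSTL3, a follistatin-like protein that traps activin and some BMPs, had log2 fold changes of -0.51 (adjusted p = 6.67e-05) and -0.55 (adjusted p = 0.00151). NOG and CHRD, the genes of noggin and chordin, which bind BMPs and keep them from their receptors, were near the detection limit. NOG had 25, 34 and 26 reads in siNC and 15, 5 and 8 in siZEB1 (log2 fold change -1.45, SE 0.368, adjusted p = 0.00449). CHRD had 12, 13 and 14 reads in siNC and 3, 4 and 4 in siZEB1 (log2 fold change -1.66, SE 0.464, adjusted p = 0.00856). Their groups did not overlap, but both genes passed the filter through their siNC cultures, so they could be tested only because they were higher there, and both were named after their values were seen.

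Of the 2 receptors among the chosen genes, BMPR1A was called higher by a narrow margin and BMPR2 was not called. BMPR1A (chromosome 10 from 86756601 to 86932838, + strand), a type I receptor for BMP2 and BMP4 that is mutated in juvenile polyposis, was at 53.7, 49.4 and 41.6 CPM in siNC and at 55.2, 54.1 and 62.0 CPM in siZEB1. The lowest siZEB1 culture exceeded the highest siNC culture by less than the spread within either group. Its log2 fold change was 0.24 (SE 0.0891, 95% interval 0.05 to 0.43, adjusted p = 0.0385). Leaving out 1 culture ended the call in 4 of 6 fits: the adjusted p was 0.072 without siNC replicate 2, 0.143 without siNC replicate 3, 0.0666 without siZEB1 replicate 1 and 0.141 without siZEB1 replicate 3. It was also lost with scaling by total library size alone (0.23, adjusted p = 0.0524).

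BMPR2 (chromosome 2 from 202376936 to 202567751, + strand), the type II receptor mutated in heritable pulmonary arterial hypertension, was at 89.4, 86.7 and 68.2 CPM in siNC and at 69.5, 62.7 and 80.5 CPM in siZEB1. The groups overlapped, with the third siNC culture below the others of its group and the third siZEB1 culture above the others of its own. The log2 fold change was -0.20 (SE 0.1, 95% interval -0.41 to 0.01, adjusted p = 0.123), an interval that holds no change as well as a fall as large as that of ACVR2B. Without siNC replicate 3 it was -0.31 (adjusted p = 0.00187) and without siZEB1 replicate 3 it was -0.30 (adjusted p = 0.0218), both past the threshold.

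Both receptor genes have a long exonic sequence, 11.412 kb for BMPR1A and 11.9 kb for BMPR2, and long genes as a class shifted between cultures of one group. The median log2 deviation from the group mean of 2352 genes with at least 8000 exonic bases was 0.035, 0.035 and -0.066 in the siNC cultures and -0.0081, -0.048 and 0.057 in the siZEB1 cultures, and 799 genes under 2000 bases deviated the opposite way in each culture. BMPR1A deviated by 0.16, 0.044 and -0.20 in siNC and by -0.046, -0.075 and 0.12 in siZEB1, and BMPR2 by 0.14, 0.10 and -0.24 and by -0.021, -0.17 and 0.19, the same signs as the long genes. SMAD6, also of that length class at 8.563 kb, deviated by -0.11, -0.21 and 0.32 in siNC, opposite to the long genes, and by -0.049, -0.034 and 0.084 in siZEB1, with the same signs as they had. The part of this shift in either receptor's result was not tested. With replicate 3 of both groups left out, an alternative chosen after seeing the data, the log2 fold change was 0.087 for BMPR1A (adjusted p = 0.336) and -0.41 for BMPR2 (adjusted p = 9.51e-09). The ratio of the receptors within a culture, BMPR1A over BMPR2 reads per kb, was 0.626, 0.595 and 0.636 in siNC and 0.828, 0.899 and 0.803 in siZEB1, so all 3 siZEB1 cultures were above all 3 siNC cultures.

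**Figure D4:**
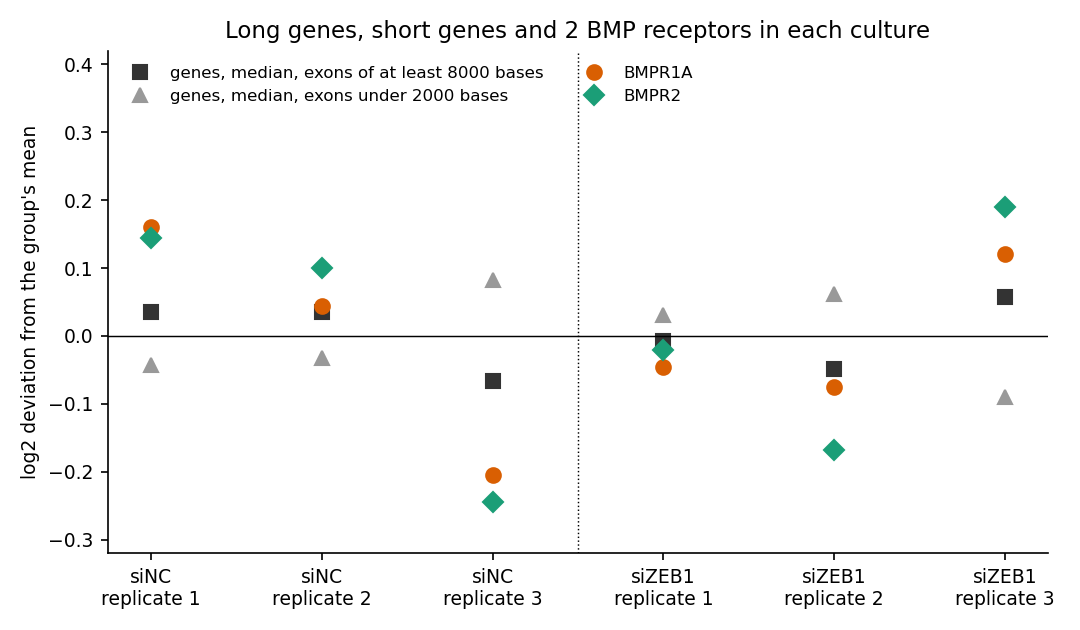
Log2 deviation from the group's mean in each culture, as the median of genes with at least 8000 exonic bases (squares) and of genes with fewer than 2000 (triangles), and for BMPR1A (circles) and BMPR2 (diamonds). Both receptors lie on the same side of 0 as the long genes in every culture and farther from 0, with the third replicate of siNC lowest and that of siZEB1 highest for long genes.

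The list of BMP receptors and co-receptors had 12 genes, 11 with a row and 10 that passed the filter, of which 3 were called higher and 2 lower, where 40.2% of all genes tested were called in either direction. ACVR1, a type I receptor that carries BMP6 and BMP7 signals, had 890, 968 and 785 reads in siNC and 484, 520 and 462 in siZEB1. It was lower in every siZEB1 culture, a change of -0.71 on the log2 scale (SE 0.0766, 95% interval -0.87 to -0.55, adjusted p = 1.28e-06), the largest among the receptors called. BAMBI, a decoy receptor without a kinase domain, was at 81.7 ± 4.89 CPM in siNC and 105 ± 4.59 CPM in siZEB1 (SD, n = 3), a change of 0.36 on the log2 scale (adjusted p = 0.000406). The type II receptors of activins and BMPs had calls of opposite sign, with log2 fold changes of 0.25 (SE 0.0977, adjusted p = 0.0482) for ACVR2A and -0.35 (SE 0.1, adjusted p = 0.00906) for ACVR2B, whose groups overlapped. The ACVR2A call was lost without siNC replicate 1 (adjusted p = 0.172), siNC replicate 3 (0.0749), siZEB1 replicate 1 (0.184) or siZEB1 replicate 2 (0.0928). It was also lost with DESeq2, without the filter (0.0833), with replicate number as a block (0.0933) and with total library size alone (0.0551). The ACVR2B call was lost without siNC replicate 2 (0.0534) or siZEB1 replicate 2 (0.0523). With 1 culture left out the receptor list gave 1 to 2 higher and 1 to 3 lower calls. BMPR1B, the other type I receptor for BMPs, was below the filter with 4, 8 and 5 reads in siNC and 4, 2 and 2 in siZEB1, and ACVRL1, RGMA, RGMB and ENG were not called. ACVRL1 had 15, 24 and 20 reads in siNC and 12, 8 and 8 in siZEB1. Its groups did not overlap (-0.93, adjusted p = 0.0535), and it was called lower without siNC replicate 1 (-1.10, adjusted p = 0.0426). Like NOG and CHRD, ACVRL1 passed the filter through its siNC cultures, so it could be tested only because it was higher there.

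Of the SMAD genes, the inhibitory ones were lower in siZEB1 and the BMP-activated ones were not called. SMAD6 (chromosome 15 from 66702228 to 66782848, + strand), which blocks BMP type I receptors and binds SMAD1, had 197, 193 and 244 reads in siNC and 99, 102 and 111 reads in siZEB1. Those reads correspond to 9.26, 8.62 and 12.7 CPM and to 5.24, 5.30 and 5.80 CPM, so the siNC cultures varied more but lay above all siZEB1 cultures. Its log2 fold change was -0.89 (SE 0.148, 95% interval -1.21 to -0.58, adjusted p = 0.000127), a 1.86-fold lower level, and it lay between -1.0 and -0.72 with any one culture left out. SMAD6 is the gene whose window, printed above, holds the letters of the SMAD palindrome next to the transcription start. Binding there was not measured, and a part of this match in the fall was not tested.

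SMAD7, the related inhibitor that acts on both TGF-beta and BMP receptors, had 1760, 1811 and 1537 reads in siNC and 1188, 1204 and 1147 in siZEB1. It was lower in all siZEB1 cultures, a change of -0.39 on the log2 scale (SE 0.0641, adjusted p = 0.000111). SMURF2, a ubiquitin ligase that SMAD7 brings to the receptors, fell by 0.40 on the log2 scale (SE 0.0664, adjusted p = 0.000135), and the related SMURF1, not called, was at -0.16 (adjusted p = 0.0734). Of the 3 SMADs that BMP receptors phosphorylate, SMAD5 was at 156 ± 18 CPM in siNC and 145 ± 11.3 CPM in siZEB1 (SD, n = 3; log2 fold change -0.11, 95% interval -0.28 to 0.06). SMAD1 differed by -0.26 on the log2 scale (95% interval -0.55 to 0.02) and SMAD9, with 10 to 17 reads per culture, by 0.14 (95% interval -0.63 to 0.90). Without siNC replicate 3 both SMAD1 (-0.36, adjusted p = 0.0236) and SMAD5 (-0.20, adjusted p = 0.018) were called lower, and SMAD1 was so without siZEB1 replicate 3 (-0.38, adjusted p = 0.0397). SMAD4 had 3, 5 and 3 reads in siNC and 10, 7 and 8 in siZEB1 and was below the filter, in a line described elsewhere as lacking SMAD4 protein. Of the 8 genes listed as SMADs and SMURFs, 7 passed the filter, 3 were called lower and 0 higher, where 40.2% of all genes tested were called in either direction.

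ID2 was the predominant ID gene and was lower in siZEB1. ID2 (chromosome 2 from 8678845 to 8684453, + strand), which also binds the retinoblastoma protein, had 2053, 2179 and 1807 reads in siNC and 1158, 1298 and 1299 in siZEB1. At 96.5, 97.3 and 93.7 CPM against 61.3, 67.5 and 67.9 CPM, the groups were far apart and each varied little. The log2 fold change was -0.55 (SE 0.0664, 95% interval -0.69 to -0.41, adjusted p = 4.89e-06), so that the level fell by 31.6%, a fold of 1.46, just under the 1.5-fold cut. The antisense gene ID2-AS1 overlaps 1.72% of the exonic bases of ID2 and had 115, 105 and 118 reads in siNC and 84, 78 and 103 in siZEB1. Whether counting used the strand is not given in the sources used here.

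ID1 (chromosome 20 from 31605283 to 31606515, + strand), the ID gene most often used as a readout of BMP signaling, had 105, 104 and 100 reads in siNC and 71, 68 and 61 in siZEB1. The groups were apart at 4.92 ± 0.272 and 3.49 ± 0.289 CPM (SD, n = 3), a change of -0.49 on the log2 scale (SE 0.151, 95% interval -0.81 to -0.17, adjusted p = 0.0153). Without siZEB1 replicate 3 the value was -0.43 and the call was lost (adjusted p = 0.0586). The ratio of ID2 to ID1 reads per kb was 10.9, 11.7 and 10.1 in siNC and 9.12, 10.7 and 11.9 in siZEB1, ranges that overlap.

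ID3 (chromosome 1 from 23557918 to 23559794, - strand), otherwise a close companion of ID1, was at the limit of what this depth can show. It had 23, 18 and 24 reads in siNC and 22, 19 and 7 reads in siZEB1. The third siZEB1 culture was low and the other two lay within the siNC range. The log2 fold change was -0.30 (SE 0.373, 95% interval -1.09 to 0.49, adjusted p = 0.551), and without siZEB1 replicate 3 it was 0.056 (adjusted p = 0.92), so no direction can be given. A fall of the size seen for ID1 and ID2 lies inside the interval of ID3.

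Per kb of exon, the ID genes kept the order ID2, ID1, ID3 in all 6 cultures. ID2 was at 43.5 ± 0.852, ID1 at 3.99 ± 0.221 and ID3 at 0.581 ± 0.124 CPM per kb in siNC, and at 29.7 ± 1.66, 2.83 ± 0.234 and 0.467 ± 0.234 in siZEB1 (SD, n = 3). ID2 made 90.5% ± 0.809 of the summed level of the 3 genes in siNC and 90.0% ± 1.71 in siZEB1, a difference smaller than the spread. The sum itself was 48.0 ± 0.553 CPM per kb in siNC and 33.0 ± 1.34 in siZEB1 (SD, n = 3), with no overlap between the groups.

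Among other known targets of BMP-activated SMADs, MSX1 and MSX2 were lower in siZEB1, and MSX1 had the largest change of the genes in the pathway lists with a mean above 1 CPM. MSX1, a homeobox repressor induced by BMPs in many embryonic tissues, had 6202, 7199 and 6614 reads in siNC and 2067, 2190 and 2013 in siZEB1. No siZEB1 culture came near the siNC range, and the level was 2.91-fold lower (log2 fold change -1.54, SE 0.0673, 95% interval -1.68 to -1.40, adjusted p = 2.05e-11). MSX2, its paralog, was at 25.9 ± 0.344 CPM in siNC and 20.2 ± 1.51 CPM in siZEB1 (SD, n = 3; log2 fold change -0.36, adjusted p = 0.00263). RUNX2 and HEY1 had log2 fold changes of -0.14 (adjusted p = 0.0917) and 0.19 (adjusted p = 0.431) and were not called, although RUNX2 was called lower without siNC replicate 3 (-0.18, adjusted p = 0.0318) or siZEB1 replicate 3 (-0.18, adjusted p = 0.0427), and DLX5 and ATOH8 were below the filter. Of the 6 listed targets, 4 were tested, 2 were called lower and 0 higher, against 21.2% and 19.0% of all genes tested.

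The list of basic helix-loop-helix (bHLH) genes holds the E proteins that ID proteins bind and other bHLH factors. Its genes moved in both directions, and so did the E proteins tested, TCF3 and TCF12. TCF3, which encodes the E proteins E12 and E47, had 2455, 2727 and 2504 reads in siNC and 3902, 4088 and 3868 in siZEB1. It was higher in every siZEB1 culture, a change of 0.76 on the log2 scale (SE 0.062, 95% interval 0.63 to 0.89, adjusted p = 5.24e-08). TCF12, the E protein HEB, was at 72.4 ± 7.16 CPM in siNC and 50.2 ± 3.34 CPM in siZEB1 (SD, n = 3; log2 fold change -0.53, adjusted p = 5.84e-05). The ratio of TCF3 to TCF12 reads per kb was 2.37, 2.44 and 3.14 in siNC and 6.44, 7.02 and 5.85 in siZEB1, without overlap. TCF4, the E protein E2-2, had at most 3 reads in any culture. ASCL2, a bHLH factor of intestinal stem cells, had 62, 44 and 56 reads in siNC and 90, 106 and 63 in siZEB1 (log2 fold change 0.81, SE 0.212, adjusted p = 0.00563). BHLHA15, a bHLH factor of secretory cells, had 28, 17 and 22 reads in siNC and 35, 34 and 42 in siZEB1 (log2 fold change 0.86, SE 0.269, adjusted p = 0.0172), a call that was lost without siNC replicate 2 (adjusted p = 0.0892) or siZEB1 replicate 3 (adjusted p = 0.0638). Of the 8 bHLH genes listed, 6 had a row and 4 were tested. Of these, 3 were higher and 1 was lower, against 19.0% and 21.2% of all genes tested.

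Over all 7 lists, 40 genes were tested, 7 were called higher and 18 lower, NOG and CHRD among the latter, and their median log2 fold change was -0.33. Leaving out the 10 genes chosen by name, 31 were tested, with 5 higher, 13 lower and a median of -0.29, against 19.0% higher, 21.2% lower and a median of -0.0055 over all genes tested. NOG, CHRD and ACVRL1, lower in siZEB1, entered these totals and medians only through their siNC cultures. Such entry favors lower values, and the totals and medians were not recomputed without them. With at least 10 counts in every sample, which leaves out NOG and CHRD, 3 antagonists were lower and 0 higher. Lower calls outnumbered higher calls among ligands, antagonists, SMADs, ID genes and targets. Among the listed bHLH genes, higher calls outnumbered lower ones, while the E proteins TCF3 and TCF12 moved opposite ways. The receptors were split in an order that turned with the culture left out. These counts are descriptions of lists put together with earlier results of these data known, and no test of the lists was made.

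**Figure D5:**
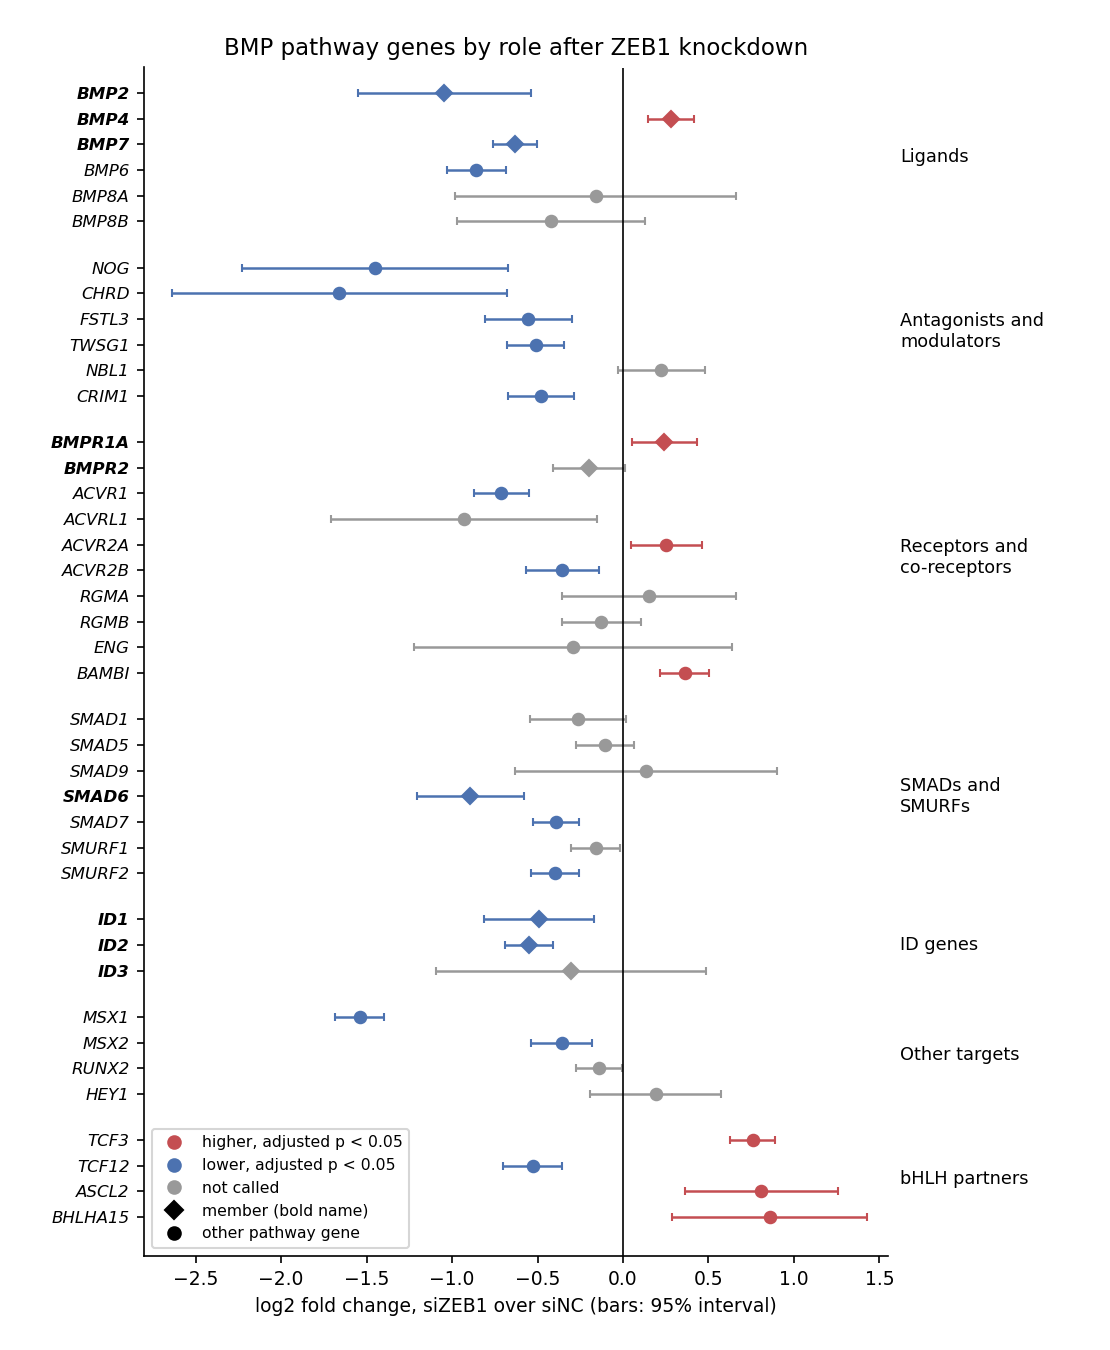
Log2 fold change of siZEB1 over siNC for each gene tested, grouped by role, with bars for the 95% interval, red for higher and blue for lower at an adjusted p below 0.05, grey for not called, and diamonds with bold names for the genes chosen by name. BMP4 and BMPR1A lie to the right of 0, BMP2, BMP7, SMAD6, ID1 and ID2 to the left, and the bars of BMPR2 and ID3 cross 0.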

How the data were processed

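Total RNA of the 6 SW480 cultures was extracted with TRIzol and sequenced on an Illumina instrument, with 3 biological replicates per group. The authors deposited raw counts of reads per gene, not normalized. Per the submitters' processing notes, Trimmomatic, HISAT2, SAMtools and featureCounts were used with genome build hg38, without a stated role or version. The annotation and the strand setting are not given in the sources used here. Genes were kept by filterByExpr with the treatment as group, scaled by TMM and tested with edgeR 4.0.16 in R 4.3.3 (glmQLFit, glmQLFTest, two-sided, no covariate), with Benjamini-Hochberg adjustment over 14996 genes. SE is the absolute log2 fold change over the square root of F, and 95% intervals use the t distribution of the fit. The biological coefficient of variation was 6.58%, so small changes of abundant genes passed the test. Within a group, pairs of cultures differed by 2.18 to 8.58 times sampling noise (chi-square over degrees of freedom), so all 6 were kept as separate samples.

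The chosen genes, the pathway lists and the tests were set with earlier results of these data known. The genes named are the 10 chosen by name, ZEB1, up to 4 further called genes per list with the largest change and a mean of at least 1 CPM, and SMAD1, SMAD4, SMAD5, SMAD7, SMAD9, ACVR1, BMPR1B, TCF3, TCF4 and TCF12; other genes were named after their values were seen, to complete each list. Gene coordinates and exon lengths are from GENCODE 29 (GRCh38), in which 31059 of 32029 identifiers were found, with exons merged over all transcripts. The long-gene comparison used genes with a mean of at least 5 CPM and a pseudocount of 0.5 CPM. The fit was tested on simulated counts. Alternatives were DESeq2 1.42.0, its size factors, total library size, no filter, at least 10 counts in every sample, a replicate block, fits without one culture at a time, and stricter thresholds; leaving out replicate 3 of both groups was added after seeing the data. Protein sequences were not used here.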

Additional observations from a re-analysis of the deposited data

How the results depend on the processing

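Of 116 recomputed fold changes of the 9 genes with a row, 114 kept their direction and 101 their side of the threshold, over 13 alternatives of which 12 were planned. BMP2, BMP4, BMP7, SMAD6, ID2 and ZEB1 kept direction and call under all 13. The count called higher, 2 as reported, was 1 with total library size only, 1 with the replicate block, 1 with replicate 3 of both groups left out, 1 at an adjusted p below 0.01, 0 at an adjusted p below 0.001, and 1 to 2 with any one culture left out; the count called lower, 5 as reported, was 3 at an adjusted p below 0.001. BMPR1A was not called with total library size only (0.23, adjusted p = 0.0524), with the replicate block (0.25, adjusted p = 0.0783) or with replicate 3 of both groups left out (0.087), and ranged from 0.15 to 0.32 with one culture left out. BMPR2 was called without a filter (-0.20, adjusted p = 0.0341) and with replicate 3 of both groups left out (-0.41), and ranged from -0.31 to -0.12 with one left out. ID1 was not called with replicate 3 of both groups left out (-0.39, adjusted p = 0.0957) and ranged from -0.55 to -0.43. ID3 changed sign, in a range of -0.61 to 0.056 with one left out, without siZEB1 replicate 3 (0.056) and with replicate 3 of both groups left out (0.20), and could not be tested with at least 10 counts in every sample. Among the lists, higher receptors numbered 1 with total library size only and 1 with the replicate block, lower antagonists 3 with at least 10 counts in every sample, and, with replicate 3 of both groups left out, higher antagonists 1, lower SMADs and SMURFs 6 and lower ID genes 1. With one culture left out, the ranges were 1 to 2 higher and 1 to 3 lower receptors, 0 to 1 higher antagonists (1 without siNC replicate 3), 3 to 5 lower SMADs and SMURFs (5 without siNC replicate 3) and 1 to 2 lower ID genes (1 without siZEB1 replicate 3). The causes of these changes were not tested. The stricter filter tests fewer genes, and fits with a culture left out hold fewer samples. In the fits with a culture left out, calls were both lost and gained. Replicate numbers are shared by the groups, but same-numbered samples correlated at -0.20 to -0.052 and 0 of 6 samples correlated best with their own number. These correlations are of deviations from a group mean over 3 cultures, so they cannot decide whether same-numbered samples were prepared together. At this depth, genes near or under 1 CPM such as ID3, NOG and CHRD allow only large changes to be seen.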
